A study of Mus musculus with 12 samples.

Results

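The response of the colon mucosa to azoxymethane and dextran sodium sulfate (AOM+DSS) was examined in mice that carried bone marrow lacking Muc1, which encodes a mucin anchored in the cell membrane. All animals were C57BL/6 wild-type recipients of C57BL/6 marrow, 1 colon per array. Of the 12 arrays of the study, 6 held mice with Muc1 knockout (KO) donor marrow and were chosen by their labels: 3 untreated mice (KO_untreated) and 3 treated mice (KO_AOMDSS). The other 6 arrays held mice with wild-type (WT) donor marrow, 3 untreated and 3 treated. Treated mice received 12.5 mg/kg of the carcinogen azoxymethane by intraperitoneal injection. After 5 days they drank 2% DSS for 4 days and water for 14 days, went through that cycle again, and drank 2.5% DSS for a final 5 days. Colons were taken 1 day after the last DSS, so the values describe mucosa just after an episode of chemical colitis. The untreated KO mice carried the same marrow, so the comparison holds the donor genotype constant, and the recipients' own epithelium and stroma had intact Muc1. The sources used here do not give age, sex or the share of blood cells that were still of host origin.

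DSS damages the surface epithelium of the colon, which lets gut bacteria reach the tissue beneath. Neutrophils and monocytes are then drawn in from the blood by chemokines, and they and the resident cells release cytokines, proteases and antimicrobial proteins. Azoxymethane is an alkylating carcinogen, and together with repeated colitis it gives colon tumours in mice. Absorptive colonocytes, the main cells of the surface, carry the transporters for salt, water and short-chain fatty acids and the enzymes that detoxify food compounds. The daily clock is a loop of transcription factors in which CLOCK and BMAL1 (gene Arntl) switch on genes with an E-box, among them the Per and Cry repressors, the repressors Nr1d1 and Nr1d2, and the output regulators Dbp and Tef.

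Signals are given on a log2 scale with the 75th percentile of each array set to 0, always in the order mouse 1, 2 and 3, and a step of 1 is a doubling. A change is the mean of the 3 treated minus the mean of the 3 untreated mice, ± its SE from a limma model of all 12 arrays, with a gene called when its Benjamini-Hochberg adjusted p was under 0.05. Of 23747 genes tested, 749 were called (3.15%), of which 439 were higher (1.85%) and 310 lower (1.31%) after AOM+DSS. The called rises were the larger, with a median of 2.72 on the log2 scale (0.80 to 10.22) against a median of -1.80 (-6.14 to -0.77) for the falls, and 728 of the 749 were at least 2-fold. After normexp background correction, which raises dim signals by an offset, the medians of the same genes were 1.67 and -1.43. A probe dim in untreated mice could be kept through a treated group alone, and for such a probe a fall could hardly be seen. Without a threshold on size or correction, 3454 genes had an unadjusted limma p under 0.05. The median change of all genes tested was -0.11. The 3 treated values lay apart from the 3 untreated ones for all 749 called genes, and for 23.6% of all genes tested.

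The 6 KO arrays had similar brightness, with 75th percentiles of 488 to 569.9 intensity units, 58.4% to 78.7% of probes well above background and 0 saturated spots. Slides did not match the groups fully: KO_untreated 1 lay on slide 1, KO_untreated 2 and 3 with KO_AOMDSS 3 on slide 2, and KO_AOMDSS 1 and 2 on slide 3, which was scanned on another day. These last arrays had 527 and 491 non-uniform spots against 4 to 51 on the other KO arrays. With slide as a block, 1725 genes were called (7.26%), 1107 higher (4.66%) and 618 lower (2.6%). Of these, 548 were among the 749 (2.31% of all genes tested), and the median of all genes moved from -0.11 to 0.44. All 439 rises stayed above that shifted median and all 310 falls below it. On slide 2 alone, where 1 treated mouse was set against 2 untreated mice, 986 genes were called (4.15%), 425 of them among the 749. The count also rested on single arrays: it was 302 without KO_untreated 2, 251 without KO_untreated 3, 386 without KO_AOMDSS 1, 417 without KO_AOMDSS 2 and 1268 without the dim array WT_AOMDSS 3. Among the called rises KO_AOMDSS 3 was the highest treated mouse for 53.8% of genes, against 54.5% over all genes tested, and among the falls KO_AOMDSS 2 was the lowest for 61.5%, against 41% over all genes. A total of 231 of the 749 genes were called in all 12 fits that each left out 1 array.

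**Figure D1:**
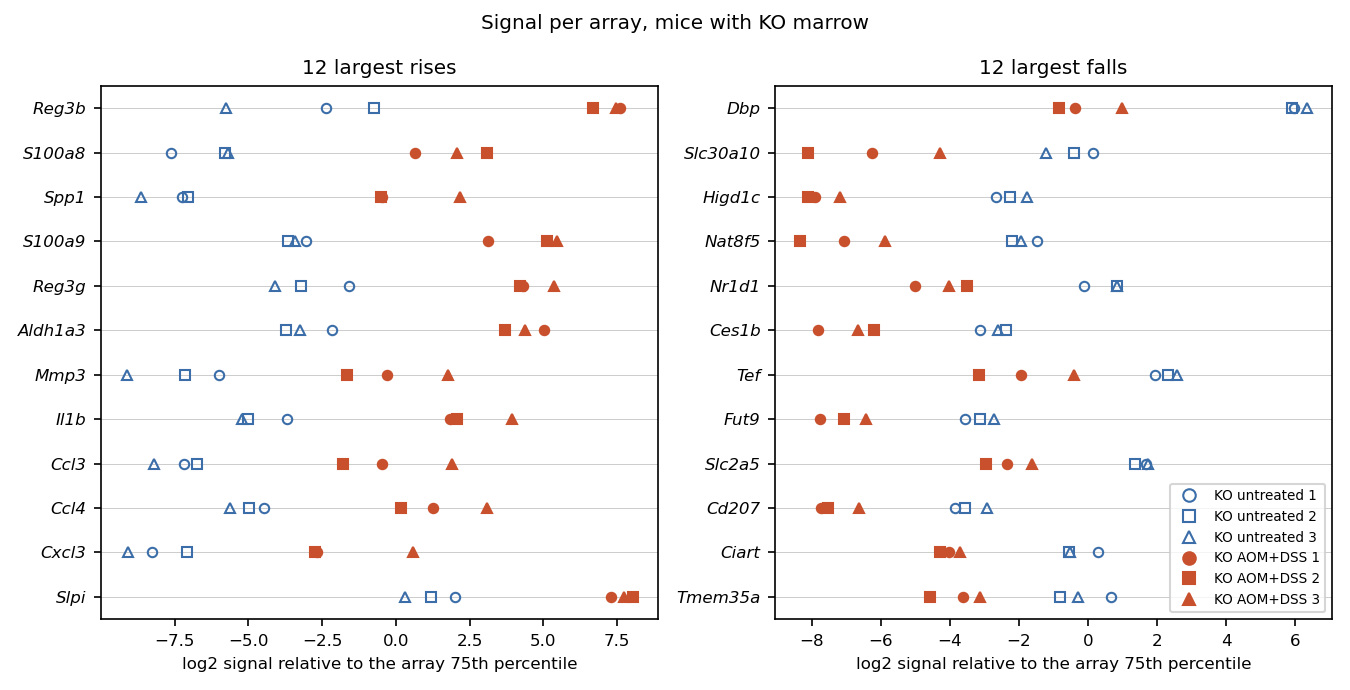
Scaled log2 signal, with the 75th percentile of the array at 0 (horizontal axis), of the 12 largest rises and 12 largest falls among called genes with a symbol, in the 3 untreated (open) and 3 AOM+DSS treated (filled) mice with KO marrow. In each row the treated points lie on one side of the untreated points, and signals of different genes come from different probes and are not comparable.

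The largest rise belonged to Reg3b, the gene of a lectin that the gut epithelium secretes against bacteria. Its signal was -2.37, -0.73 and -5.77 in untreated mice and 7.60, 6.70 and 7.48 in treated mice. The untreated mice were spread over a wide range and the treated mice were close together and all higher. The change was 10.22 ± 1.43, or 1190-fold (limma adjusted p = 0.00209). The related lectin gene Reg3g had -1.59, -3.22 and -4.09 in untreated and 4.31, 4.23 and 5.36 in treated mice. All treated mice were again above all untreated mice, with a change of 7.60 ± 1.13, or 194-fold (limma adjusted p = 0.00261). Slpi, which encodes an inhibitor of neutrophil proteases made by mucosal epithelia, stood at 2.02, 1.18 and 0.32 without treatment and at 7.28, 8.04 and 7.73 with it. It rose by 6.51 ± 0.57, or 91.2-fold (limma adjusted p = 0.000138).

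Of 23 measured antimicrobial and acute-phase genes, 8 rose and 1 fell (39.1% called, against 3.15% of all genes), with a median change of 0.45. Haptoglobin (Hp), an acute-phase protein that binds free haemoglobin, rose by 5.74 ± 1.29, and Lbp, which binds bacterial lipopolysaccharide, by 4.12 ± 0.81. Lcn2, a protein that withholds iron from bacteria, rose by 3.66, complement component C3 by 3.18 and Duoxa2, a maturation factor of an epithelial oxidase, by 2.13. Reg4, another secreted lectin of the colon, was the member that fell, by 2.29 on the log2 scale. The serum amyloid genes Saa1, Saa2 and Saa3 were not called, with changes of 0.36, 0.27 and 0.32. Of these 9 calls, 7 were also made with slide as a block and 3 in all 12 fits without 1 array.

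Of 20 measured neutrophil genes, 12 rose (60%, against 1.85% of all genes) and 0 fell, with a median change of 3.93 against -0.11 over all genes. S100a8 and S100a9 encode the subunits of calprotectin, the abundant metal-binding protein of the neutrophil cytoplasm. S100a9 was at -3.06, -3.66 and -3.41 in untreated mice and at 3.12, 5.12 and 5.47 in treated mice. The untreated mice nearly coincided and all treated mice were far above them, with a change of 7.94 ± 0.63, or 246-fold (limma adjusted p = 7.29e-05). S100a8 was at -7.63, -5.81 and -5.68 in untreated mice, where 1 of 3 arrays was well above background, and at 0.67, 3.09 and 2.06 in treated mice. The groups did not overlap and the change was 8.31 ± 0.85 (limma adjusted p = 0.000385).

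Retnlg, a resistin-like gene of neutrophils, was not well above background in any untreated mouse (-7.02, -6.97 and -7.24) and reached -2.48, -2.11 and 1.23 in treated mice. Treated mouse 3 was the highest, and the rise was at least 28.3-fold (limma adjusted p = 0.00596). For such genes the bright group's mean was set against the lowest signal counted as well above background on the dim arrays, or the probe's own signal where that was higher. It is a bound only for the signal as scaled here: after normexp correction the change of Retnlg was 2.66 on the log2 scale. Clec4e, a receptor for bacterial and fungal glycolipids, rose by 5.70 ± 0.79, and Hdc, the enzyme that makes histamine, by 5.53 ± 0.91. Clec4e was above the background limit in 1 of 3 untreated mice and Hdc in 2 of 3. Csf3r, the receptor for granulocyte colony-stimulating factor, rose by 5.14 and Cxcr2, the receptor through which neutrophils sense CXC chemokines, showed 3.24 without being called. Mpo, the peroxidase gene that neutrophils transcribe mainly while still in the marrow, showed -0.38 and was not called.

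The median of the neutrophil list was -4.91, -6.39 and -6.70 in the untreated mice and -3.79, -3.15 and -1.37 in the treated mice, so every treated mouse exceeded every untreated one. In whole mucosa, more cells of a type and more RNA per cell cannot be told apart. Of the 12 called neutrophil genes, 11 were also called with slide as a block, 7 in all 12 fits without 1 array, and 7 after normexp background correction, which raises dim signals by an offset. Only 5 of the 20 measured genes were well above background on all 6 arrays, and the median change of the list was 1.59 after normexp correction and 5.39 with slide as a block.

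Chemokines that attract neutrophils were among the largest changes. Of 17 measured CXC chemokines and receptors, 8 rose and 0 fell (median change 1.70), and of 22 CC chemokines and receptors, 8 rose and 0 fell (median change 1.08). Over all genes tested, 1.85% were called higher. Only 10 of the 17 and 13 of the 22 were well above background on all 6 KO arrays, and a dim gene could hardly be seen to fall. After normexp correction the median changes of the 2 lists were 0.99 and 0.77. Cxcl3 was at -8.26, -7.09 and -9.07 in untreated mice, not well above background on any of them, and at -2.66, -2.75 and 0.60 in treated mice. Treated mouse 3 stood above the other two and all were above the untreated mice, a rise of at least 20.3-fold (limma adjusted p = 0.00181). Cxcl2 was at -8.21, -7.13 and -7.57 against -2.44, -2.37 and -0.17, a rise of at least 19.5-fold (limma adjusted p = 0.000725). Cxcl5, which intestinal epithelium secretes, was at -2.59, -3.41 and -3.57 against 1.61, 2.91 and 2.62. It rose by 5.57 ± 0.66, or 47.5-fold (limma adjusted p = 0.000725), with no overlap of the groups. Cxcl1 was at -5.00, -5.85 and -5.29, well above background on 2 of 3 arrays, against -1.12, 0.09 and 0.00, a change of 5.04 ± 0.66 (limma adjusted p = 0.00147).

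Cxcl9 and Cxcl10, which attract T cells and are induced by interferon gamma, rose by 3.85 ± 0.82 and by 2.81. Cxcl9 was not called with slide as a block, where its change was 3.36. The homeostatic chemokines Cxcl12, Cxcl13 and Cxcl14 showed 0.48, 1.17 and 0.73 and were not called. Among CC chemokines, Ccl3 was at -7.18, -6.73 and -8.21 in untreated mice, below the background limit on all of them, and at -0.47, -1.80 and 1.92 in treated mice. It rose at least 56.8-fold (limma adjusted p = 0.000779). Its close relative Ccl4 rose by 6.54 ± 1.11 from -4.47, -4.97 and -5.63, of which 2 were well above background, to 1.26, 0.18 and 3.11. Ccl3 and Ccl4 attract monocytes, T cells and NK cells.

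Ccl2 and Ccl7, ligands of the monocyte receptor Ccr2, rose by 4.93 ± 0.59 and 4.11 ± 1.02, and Ccr2 by 2.76. The Ccl7 call rested on 1 mouse: treated values were -3.79, 1.18 and -2.87, and the gene was called in 2 of the 12 fits without 1 array and not with slide as a block. The constitutive gut chemokines Ccl25 and Ccl28 showed -0.23 and 0.23, and Ccl20 showed 1.21, none of them called. Of the 8 called CXC genes 6 were also called with slide as a block, and of the 8 called CC genes 7 were.

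The promoters of Cxcl1, Cxcl2 and Cxcl3 are shown because these genes lie together on chromosome 5 and rose together, and because each holds a match to the NF-kB consensus, the site bound by the transcription factor family that drives many inflammatory genes. They were matched by symbol in a RefSeq promoter table (GRCm38.p6), run from 250 bases before to 50 bases after the start of the gene, and lie on the plus strand at chr5:90890995-90891294, chr5:90903649-90903948 and chr5:90785851-90786150. Capitals mark the matches to the consensus, searched on both strands, with overlapping matches counted as 1 site.
Cxcl1: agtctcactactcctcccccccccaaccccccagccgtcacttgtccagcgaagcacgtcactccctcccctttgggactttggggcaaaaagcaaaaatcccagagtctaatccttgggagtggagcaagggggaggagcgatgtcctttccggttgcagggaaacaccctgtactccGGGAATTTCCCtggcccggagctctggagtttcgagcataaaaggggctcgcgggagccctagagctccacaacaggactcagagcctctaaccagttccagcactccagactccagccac
Cxcl2: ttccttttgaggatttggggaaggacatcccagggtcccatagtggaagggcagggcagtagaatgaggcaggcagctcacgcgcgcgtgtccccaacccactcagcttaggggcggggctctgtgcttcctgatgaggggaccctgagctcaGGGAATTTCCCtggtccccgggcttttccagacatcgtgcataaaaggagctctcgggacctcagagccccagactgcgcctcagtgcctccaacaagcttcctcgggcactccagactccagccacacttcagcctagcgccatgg
Cxcl3: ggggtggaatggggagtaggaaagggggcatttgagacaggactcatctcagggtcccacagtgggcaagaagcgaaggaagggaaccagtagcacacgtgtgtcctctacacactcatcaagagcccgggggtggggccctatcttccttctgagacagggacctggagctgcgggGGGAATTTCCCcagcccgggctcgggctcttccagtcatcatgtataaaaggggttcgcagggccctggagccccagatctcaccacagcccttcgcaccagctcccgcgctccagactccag
The same letters, GGGAATTTCCC, stood 71 bases before the start of Cxcl1, 97 before that of Cxcl2 and 73 before that of Cxcl3. Of 9 called chemokine genes with a promoter in the table, 5 held a match (Cxcl1, Cxcl2, Cxcl3, Cxcl10 and Ccl9), against 5.14% of all 27025 genes in it. A match is a description of the letters and not a measure of binding.

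Cytokines of acute inflammation rose as well. Il1b, the gene of interleukin 1 beta, was at -3.70, -5.01 and -5.21 in untreated mice, where 2 of 3 arrays were well above background, and at 1.85, 2.07 and 3.94 in treated mice. All treated mice were far above all untreated mice, with a change of 7.26 ± 0.65, or 153-fold (limma adjusted p = 0.000141), and on slide 2 alone it was 9.05. Il1a, the other agonist of the same receptor, rose by 3.19 ± 0.77, but this call was made in 5 of the 12 fits without 1 array. Of the 3 untreated arrays 1 was well above background for Il1a, as for Il1r2. The decoy receptor Il1r2 rose by 3.96 ± 0.70 and Il1rl1, the receptor for interleukin 33, by 3.44 ± 0.61. The 3 probes of Il1rl1 differed, at 3.44, 7.62 and 1.43.

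In all, 5 of 14 measured genes of the interleukin 1 family rose (35.7%, against 1.85% of all genes) and 0 fell (median change 0.85). The signalling receptor Il1r1, the antagonist Il1rn and Il18 were not called and showed 0.20, 0.93 and -0.04, and Nlrp3 and Casp1, parts of the inflammasome that matures interleukin 1 beta, showed -0.16 and -0.38.

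Among 15 other inflammatory cytokines and enzymes, 6 rose (40%, against 1.85% of all genes) and 0 fell (median change 2.14). Only 6 of the 15 were well above background on all 6 KO arrays, and the median change was 1.08 after normexp correction. Ptgs2, the inducible cyclooxygenase that makes prostaglandins, was below the background limit in all untreated mice (-7.92, -6.86 and -8.81) and reached -3.67, -4.30 and -0.81 in treated mice. Its rise was at least 8.09-fold (limma adjusted p = 0.0131), with treated mouse 3 the highest. Tnf was at -2.26, -3.33 and -3.71 against -0.96, 0.10 and -0.12. It rose by 2.77 ± 0.45 (limma adjusted p = 0.00491), and all treated mice were above all untreated mice. Il6 rose at least 5.28-fold, and interferon gamma (Ifng) and the inducible nitric oxide synthase Nos2 rose by 3.76 ± 0.90 and 3.15 ± 0.68. Ifng was above the background limit in 1 of 3 untreated mice and was not called with slide as a block. Il10, Il17f and Il23a were not called, with 0.08, -0.08 and 0.94. Of these 6 calls only that of Tnf was made in all 12 fits without 1 array, and it was also the only one kept after normexp correction.

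Socs3, an inhibitor of cytokine receptors that is itself induced through STAT3, was at 1.05, 0.75 and 0.26 in untreated and at 5.07, 5.21 and 5.03 in treated mice. The treated mice nearly coincided, and the change of 4.41 ± 0.33 was 21.3-fold (limma adjusted p = 6.91e-05). Of 17 measured genes of TNF signalling and NF-kB feedback, 5 rose and 1 fell (35.3% called, against 3.15% of all genes, median change 1.57). Tnfrsf1b, a TNF receptor found mainly on immune cells, rose by 3.55 ± 0.37, though its second probe showed 0.10. Tnfaip2 rose by 2.57 ± 0.56 and Tnip3, a protein that restrains NF-kB, by 1.91 ± 0.36. Tnip1, a related restraining protein, fell by 1.38 on the log2 scale but was not called with slide as a block (-1.19). The classical NF-kB targets Nfkbia and Tnfaip3 showed 0.41 and 0.32 and were not called.

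Genes of monocytes and macrophages followed: 13 of 22 measured rose (59.1%, against 1.85% of all genes) and 0 fell, with a median change of 2.72. Arg1, an arginine-degrading enzyme of suppressive and tissue-repairing macrophages, was at -5.21, -5.81 and -6.77 in untreated mice, where 1 of 3 arrays was well above background, and at -0.77, -0.43 and -0.90 in treated mice. The treated mice lay close together, with a change of 5.23 ± 0.63 (limma adjusted p = 0.000824). Fcgr1, the high-affinity receptor for immunoglobulin G, was at -3.46, -3.76 and -4.27 against -0.34, -0.18 and 0.20. It rose by 3.72 ± 0.45, or 13.2-fold (limma adjusted p = 0.000855). Chil3, a chitinase-like protein of activated macrophages, rose by 3.97 ± 0.80, and Trem2, a lipid receptor of tissue macrophages, by 3.43 ± 0.56.

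The complement genes C1qa and C1qc rose by 2.67 and 3.11 and Csf1r, the receptor that macrophages need to survive, by 2.32. Ly6c1 rose by 4.97 ± 0.82. Mrc1, C1qb and Marco were not called, with 1.18, 0.22 and -0.21. Of the 13 calls, 12 were also made with slide as a block and 11 in all 12 fits without 1 array. The list median was -2.33, -3.15 and -3.69 in the untreated and -0.60, -0.59 and -0.44 in the treated mice, which did not overlap.

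A list of mediators linked to suppressive myeloid cells had 10 of 22 measured genes higher and 0 lower (median change 1.74). That was 45.5% of the list, against 1.85% of all genes called higher. The list shares S100a8, S100a9, Arg1, Nos2, Ptgs2 and Socs3 with the groups above. Its other called members were Il4ra (2.48), Ncf4 (2.49), the haem-degrading enzyme Hmox1 (1.63) and the transcription factor Cebpb (1.44). Stat3, Tgfb1, Cd274 and Vegfa were not called, with 0.79, 0.86, 0.39 and -0.29.

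Lymphocyte genes gave few calls in number, where 3.15% of all genes tested were called. Of 17 T and NK cell genes, 0 were called (median change 0.51), with Cd3e at 0.16, Cd8a at 0.13, Cd4 at -0.80 and Gzmb at 2.05. Of 18 B and plasma cell genes, 2 rose (11.1%): Jchain, which joins secreted IgA and IgM, and Prdm1, a regulator of plasma cells. With slide as a block 6 of the 18 were called higher, against 4.66% of all genes. Jchain went from 1.14, 1.58 and 1.58 to 4.13, 4.10 and 3.96, a change of 2.63 ± 0.41 (limma adjusted p = 0.00371), and the mice of each group nearly coincided. The B cell genes Ms4a1 and Cd79a were not called, with 0.70 and -0.63. Of 14 dendritic cell and antigen presentation genes, Itgax rose by 2.33 ± 0.36 and Cd83 fell by 1.48 on the log2 scale, the latter not called with slide as a block. The class II genes H2-Aa, H2-Ab1 and Cd74 showed 2.33, 2.03 and 1.86 without a call.

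Mast cell genes split. Mcpt1, Mcpt2 and Mcpt4, the mast cell proteases, rose by 3.34 ± 0.42, 3.42 ± 0.65 and 3.29 ± 0.45. Of the 11 measured genes of the mast cell and basophil list 4 rose (36.4%, against 1.85% of all genes) and 0 fell. Hdc was the fourth of these. The second probe of Mcpt4 showed 0.72, and Mcpt2 was below the background limit in untreated mice, with a rise of at least 4.59-fold. Mcpt1 stood at -3.85, -4.67 and -4.49 in untreated and at -1.06, -0.71 and -1.24 in treated mice, without overlap (limma adjusted p = 0.00102). Other markers of the same cells, Kit, Fcer1a and Tpsb2, were not called and showed -0.40, -0.21 and -1.04. Of 6 eosinophil genes, only Il5ra was called (16.7%), with a rise of at least 9.33-fold, while Siglecf and Ccr3 showed -0.08 and -0.81. The signal of near-identical family members, such as the Mcpt, Reg3, Gstm and Ces1 genes, may be shared between their probes.

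**Figure D2:**
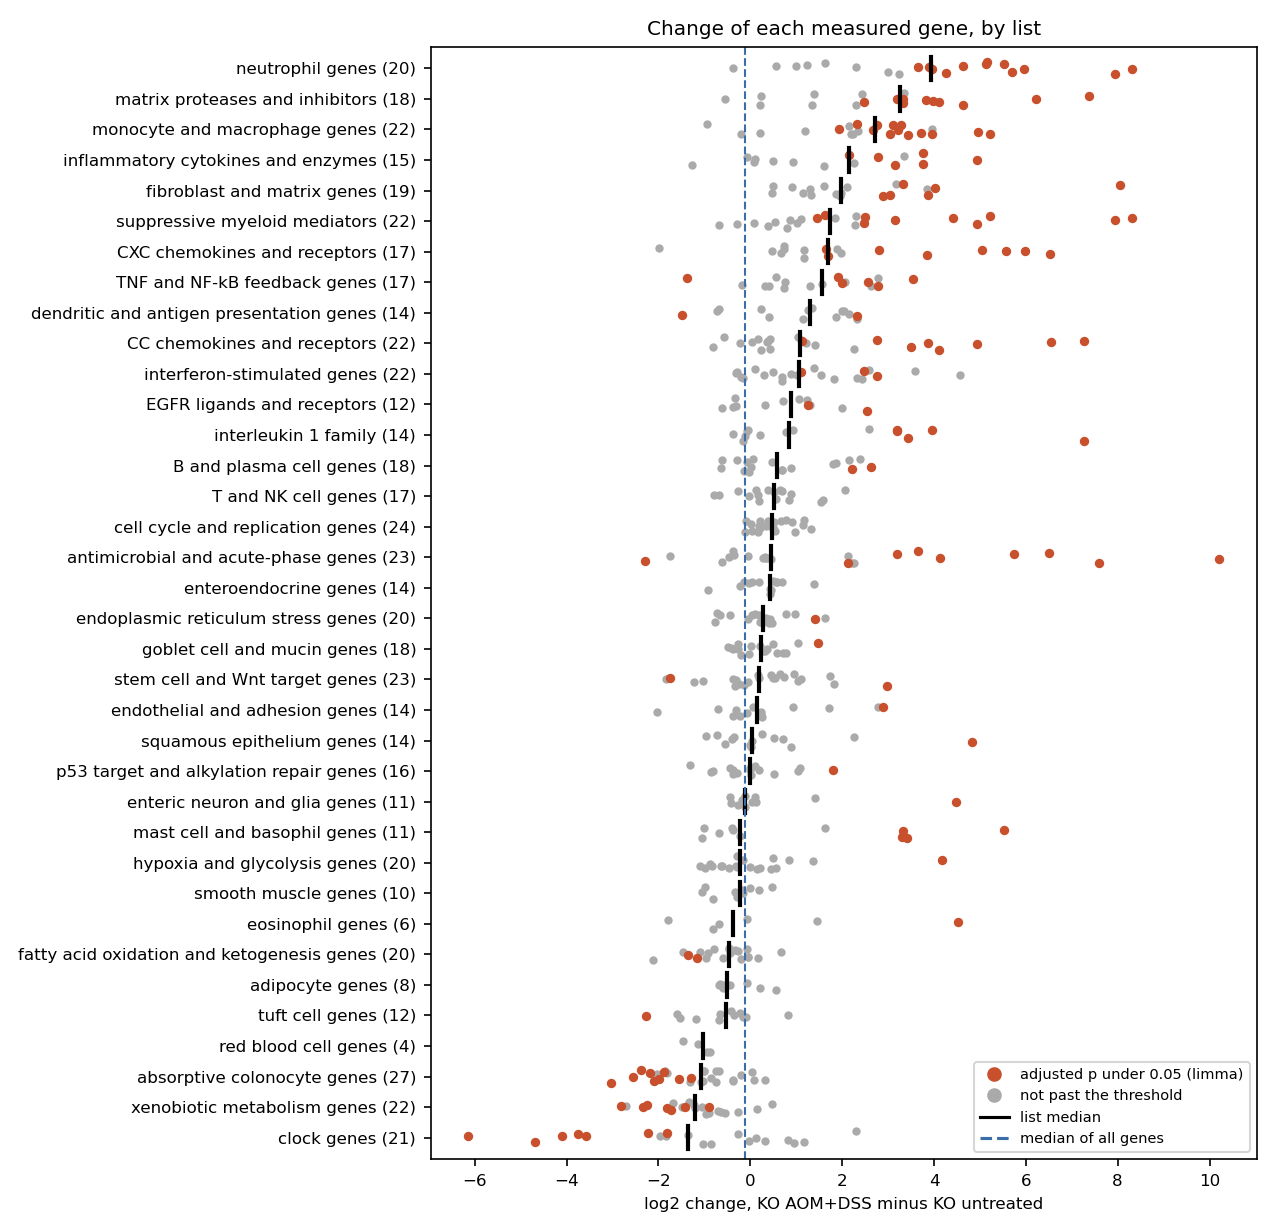
Log2 change with KO marrow, AOM+DSS minus untreated (horizontal axis), of each measured gene of the 36 lists, with the number measured in brackets. Genes with a limma adjusted p under 0.05 are red and the others grey, black bars are list medians and the dashed line is the median of all genes, -0.11. Myeloid, protease and chemokine lists lie at the top and clock, xenobiotic and colonocyte genes at the bottom.

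Enzymes that cut the extracellular matrix rose strongly. Of 18 measured matrix proteases and inhibitors, 10 rose (55.6%, against 1.85% of all genes) and 0 fell, with a median change of 3.26. Only 10 of the 18 were well above background on all 6 KO arrays, and the median change was 1.36 after normexp correction. Mmp3 (stromelysin 1) was at -6.01, -7.15 and -9.13 in untreated mice, not well above background on any of them, and at -0.30, -1.64 and 1.78 in treated mice. Its rise was at least 58.5-fold (limma adjusted p = 0.00171), with the groups far apart. The collagenase gene Mmp13 was at -4.77, -4.57 and -5.58 against 1.24, -0.03 and 2.56. It rose by 6.23 ± 0.64, or 75.1-fold (limma adjusted p = 0.000385). Mmp8, the collagenase of neutrophils, rose at least 6.32-fold and Mmp10 by 4.12 ± 0.61.

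The plasminogen system moved in the same direction: the activator Plat rose by 3.98 ± 0.47 and the receptor Plaur by 3.33. The tissue inhibitors Timp1, Timp2 and Timp3 were not called, with 1.39, 0.21 and -0.55. All 10 calls were also made with slide as a block, and 5 in all 12 fits without 1 array.

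Of 19 fibroblast and matrix genes, 6 rose (31.6%, against 1.85% of all genes) and 0 fell (median change 1.98). Spp1, which encodes osteopontin, a matrix protein and cytokine also made by macrophages, was at -7.27, -7.04 and -8.63 in untreated mice, not well above background on any of them. It reached -0.46, -0.50 and 2.19 in treated mice, at least 81.8-fold higher (limma adjusted p = 0.000538). After normexp correction the change of Spp1 was 3.63 on the log2 scale. The collagen gene Col1a1 rose by 3.32 ± 0.59, but its other probes showed -1.34 and 1.69, and it was not called when probes were averaged. Col3a1 rose by 2.90, tenascin C (Tnc) by 3.86 ± 0.91 and the fibroblast receptor Pdgfra by 4.03 ± 0.65, with -0.33 at its second probe. Of the 3 untreated arrays 1 was well above background for Pdgfra. The Tnc call was made in 4 of the 12 fits without 1 array. Vim, Fn1 and Postn were not called, with 1.60, 2.11 and 0.91.

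Markers of the tissue under the mucosa, which a scrape can include, were few among the calls. The share called was 7.14% for endothelial and 9.09% for enteric neuron and glia genes, against 3.15% of all genes tested. Of 10 smooth muscle genes 0 were called, and their median was -1.54, -2.23 and -1.67 in the untreated and -2.41, -2.08 and -2.35 in the treated mice. Acta2, Myh11 and Des showed -0.01, -0.33 and -0.81. Of 8 adipocyte and 4 red blood cell genes 0 were called. Of 14 endothelial genes only Vcam1, an adhesion molecule for leukocytes, rose, by 2.89 ± 0.60, and Pecam1 showed -2.04 without a call. Of 11 enteric neuron and glia genes only Tac1, which encodes substance P, rose. Tac1 was at -1.12, -1.24 and -1.14 in untreated and at 3.40, 4.31 and 2.25 in treated mice, a change of 4.49 ± 0.76 (limma adjusted p = 0.00644) that was 2.80 with slide as a block. The part of the tissue mix in the other changes was not tested.

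Of 27 measured genes of absorptive colonocytes, 9 fell (33.3%, against 1.31% of all genes), 0 rose and 18 were not called (median change -1.08). With slide as a block 12 of the 27 were called lower and 1 higher, against 2.6% and 4.66% of all genes. In all, 26 of the 27 were well above background on all 6 arrays, so colon epithelium was present in every sample. Slc26a3, the chloride and bicarbonate exchanger of the colonocyte surface, was at 5.60, 5.77 and 5.92 in untreated mice and at 2.66, 1.84 and 3.69 in treated mice. The untreated mice were tightly grouped and all above the treated mice, and the gene fell by 3.04 on the log2 scale (SE 0.37, limma adjusted p = 0.000855), or 8.2-fold. The sulfate transporter Slc26a2 went from 4.72, 4.78 and 4.91 to 2.72, 2.36 and 2.77. It fell by 2.19 on the log2 scale (SE 0.26, limma adjusted p = 0.000824).

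The sodium and proton exchangers Slc9a2 and Slc9a3 fell by 2.11 and 2.39, the sodium channel subunits Scnn1g and Scnn1a by 2.55 and 1.30, the water channel Aqp8 by 1.55 and the carbonic anhydrase Car4 by 1.98, all on the log2 scale. The third channel subunit, Scnn1b, was not called and showed -0.37. Vil1 and Krt20, structural genes of the epithelium, showed -0.21 and -0.37, and Guca2b showed 0.31. Of the 9 falls, 8 were also called with slide as a block and 4 in all 12 fits without 1 array. Slc9a3 was called in 6 of those 12 fits and Scnn1g in 7.

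Of 22 measured xenobiotic metabolism genes, 7 fell (31.8%, against 1.31% of all genes), 0 rose and 15 were not called (median change -1.21). Sult1a1, which attaches sulfate to phenols, was at 4.29, 4.90 and 5.09 against 1.40, 1.85 and 2.60. It fell by 2.81 on the log2 scale (SE 0.33, limma adjusted p = 0.000725), with every treated mouse below every untreated one. Glutathione transferase Gstm3 fell by 2.34 and Gstm1 by 1.72, the drug exporter Abcb1a by 2.25 and the cytochrome Cyp3a13 by 1.81. The xenobiotic receptor Nr1i2 was not called, with 0.14. Of the 7 falls, 6 were also called with slide as a block and 2 on slide 2 alone, where Gstm3 showed -1.65 and Gstm1 -1.13.

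Of 20 genes of fatty acid oxidation and ketogenesis, 2 fell (10%, against 1.31% of all genes called lower), Ppara and Acaa2, with -1.37 and -1.16. Neither was called with slide as a block, and Ppara was called in 1 of the 12 fits without 1 array. Cpt1a, which admits fatty acids to the mitochondrion, was not called, with -0.20.

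Other epithelial lists gave few calls in number. The share called was 5.56% for goblet cell and mucin genes and 8.33% for tuft cell genes. It was 8.7% for stem cell and Wnt target genes, against 3.15% over all genes tested. Of 18 goblet cell and mucin genes 1 was called, Fut2, a fucosyltransferase of surface sugars, which rose by 1.47 ± 0.26. Its second probe showed 0.77, and the call was lost when probes were averaged (1.12) and after normexp correction (1.27). Clca1, Tff3, Zg16 and Spdef showed -0.03, 0.02, 0.36 and 0.50 without a call. Muc1 itself was at -2.12, -2.90 and -3.80 in untreated and at -2.30, -0.99 and -2.41 in treated mice. The groups overlapped and the change of 1.04 ± 0.60 was not called (limma adjusted p = 0.478). Because the recipients' own cells carry Muc1, its level in whole mucosa is no check of the donor genotype, and the sources used here do not place its probes inside or outside the deletion. With WT marrow its change was -0.57.

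Of 12 tuft cell genes only Rgs13 was called, falling by 2.27 on the log2 scale and not called with slide as a block, while Dclk1 and Trpm5 showed -0.68 and -0.42. Of 14 enteroendocrine genes 0 were called. Of 23 stem cell and Wnt target genes 1 rose and 1 fell. Sp5, a Wnt target, rose by 2.99 ± 0.73, a call made in 2 of the 12 fits without 1 array, and the stem cell gene Smoc2 fell by 1.75 on the log2 scale. Lgr5, Axin2 and Ascl2 showed -1.84, -1.22 and -1.02, and Myc and Cd44 0.96 and 0.53, without a call. Of 24 cell cycle and replication genes 0 were called (median change 0.48), with Aurka at 1.33, Ccnb1 at 1.15 and Mcm2 at -0.11.

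Growth factor, squamous and stress genes gave 1 or 2 calls a list. The share called was 16.7% for EGFR ligands and receptors and 7.14% for squamous genes. It was 6.25% for p53 target and repair genes and 5% for endoplasmic reticulum stress genes, against 3.15% of all genes tested. Of 12 EGFR ligands and receptors, Hbegf, a ligand, rose by 2.54 ± 0.46, and Egfr by 1.26 ± 0.26, with 0.34, 0.28 and 0.97 at its other probes. The Egfr call was lost when probes were averaged (0.71), after normexp correction (1.12) and without the intensity trend, and was made in 7 of the 12 fits without 1 array. Areg and Epgn showed 1.07 and 1.99 without a call. Of 14 squamous epithelium genes only Ly6d was called, from 0.17, -2.27 and -2.73 to 2.88, 3.18 and 3.57. Its change was 4.82 ± 0.71 (limma adjusted p = 0.00255), while the keratins Krt5, Krt13 and Krt14 showed -0.35, 0.04 and 0.51. Of 16 p53 target and repair genes Phlda3 rose by 1.80 ± 0.38, and Cdkn1a showed -1.31 without a call. Asns, asparagine synthetase, was the only call among 20 endoplasmic reticulum stress genes, with 1.42 ± 0.24, while Hspa5 and Ddit3 showed 0.04 and -0.76.

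Pfkfb3, an enzyme that speeds up glycolysis, was the only call among 20 hypoxia and glycolysis genes (5%, against 3.15% of all genes tested). It went from -1.20, -1.25 and -1.43 to 2.63, 2.98 and 3.04, with both groups tight and far apart, a change of 4.17 ± 0.48 (limma adjusted p = 0.000715), and its other probes showed 1.42 and 2.18. Of 22 interferon-stimulated genes 3 rose (13.6%), among them Oas2 by 2.77 ± 0.64 and Zbp1 by 2.47 ± 0.54, with a list median of 1.06. Oas2 was not called with slide as a block (2.92). Of these 3 calls 0 were made on slide 2 alone and 0 in all 12 fits without 1 array, and Irf7 and Ifit1 showed -0.31 and 0.68.

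The largest fall was that of a clock gene, Dbp, and 4 of the 12 largest falls among called genes with a symbol were clock genes (Dbp, Nr1d1, Tef and Ciart). Of 21 measured clock genes, 7 fell (33.3%, against 1.31% of all genes) and 0 rose, with a median change of -1.36. The list median was -0.64 with slide as a block, where that of all genes was 0.44. It was -0.40 on slide 2 alone and -0.33 after normexp correction, where all genes had medians of 0.29 and 0.23. Dbp, an output regulator of the clock, was at 5.95, 5.91 and 6.32 in untreated mice and at -0.37, -0.85 and 0.99 in treated mice. The untreated mice nearly coincided and all were far above the treated mice, and Dbp fell by 6.14 on the log2 scale (SE 0.49, limma adjusted p = 7.29e-05), or 70.4-fold. Its relative Tef went from 1.92, 2.31 and 2.59 to -1.94, -3.15 and -0.41. It fell by 4.11 on the log2 scale (SE 0.58, limma adjusted p = 0.00212), and its other probes showed -2.63 and -3.69.

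The repressor Nr1d1 was at -0.13, 0.83 and 0.83 against -4.99, -3.49 and -4.03. It fell by 4.68 on the log2 scale (SE 0.54, limma adjusted p = 0.000715), and its other 2 probes showed -1.30 and -1.15. Averaged over its probes the change was -2.38 and was not called. Nr1d2 was at 1.61, 1.78 and 1.93 against -1.72, -2.36 and -1.33, and fell by 3.57 on the log2 scale (SE 0.34, limma adjusted p = 0.000227). Both repressors were lower in each treated mouse than in any untreated mouse. Ciart, a repressor of CLOCK and BMAL1, was at 0.30, -0.54 and -0.54 against -4.02, -4.28 and -3.72, and fell by 3.74 on the log2 scale (SE 0.47, limma adjusted p = 0.00109). Usp2, a deubiquitinase, and Cry2 fell by 2.22 and 1.80, the second probe of Cry2 showing 0.05. The Cry2 call was lost when probes were averaged (-0.88), after normexp correction and on slide 2 alone.

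The remaining 14 clock genes were not called. Per1, Per2 and Per3 showed -1.36 ± 0.35, -1.03 ± 0.48 and -1.97 ± 0.59, Wee1 -1.83 ± 0.51, Hlf -1.80 ± 0.97 and Cry1 0.13 ± 0.48, for which 1 untreated value was missing. Of the 14, Per1, Per3, Wee1, Arntl and Nfil3 had groups that did not overlap, as did 23.6% of all genes tested. Per1 stood at 0.86, 1.47 and 1.39 against 0.18, -0.33 and -0.22. Per1 was called with slide as a block, with a change of -1.84. The activators Arntl, Clock and Npas2 showed 1.16 ± 0.31, -0.03 ± 0.22 and 0.95 ± 0.46. For Arntl the untreated values of -0.26, 0.70 and 0.49 all lay below the treated values of 1.41, 1.64 and 1.36, with a limma adjusted p of 0.0654. Nfil3, which competes with Dbp and Tef for the same sites, showed 2.31 ± 1.38, from -1.42, -1.78 and -1.49 to 1.10, 0.35 and 0.79. Its SE also carries the spread of the WT mice, which when treated stood at 0.90, 1.17 and -5.90. The change of Nfil3 was 0.09 with slide as a block and 2.42 on slide 2 alone, and its second probe showed 2.21. Rora, Bhlhe40 and Bhlhe41 showed 0.81, 0.32 and -0.85. Hlf, Rora, Clock and Bhlhe41 changed sign with slide as a block. All 7 called clock genes were also called with slide as a block, and 6 in all 12 fits without 1 array. The sources used here do not give the hour at which mice were killed, and its part in these values was not tested.

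The Ciart promoter is shown because it held the most E-boxes of the called clock genes, the sites through which CLOCK and BMAL1 act. It lies on the minus strand at chr3:95882179-95882478 in the same RefSeq table (GRCm38.p6), and capitals mark CACGTG, searched on both strands.
Ciart: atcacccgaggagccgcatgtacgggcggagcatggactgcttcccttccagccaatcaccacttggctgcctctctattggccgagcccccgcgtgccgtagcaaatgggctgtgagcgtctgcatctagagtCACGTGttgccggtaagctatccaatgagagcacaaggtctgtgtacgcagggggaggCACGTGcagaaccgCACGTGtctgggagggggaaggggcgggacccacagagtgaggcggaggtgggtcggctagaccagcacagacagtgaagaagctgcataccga
The 3 E-boxes stood 116, 58 and 44 bases before the start. CACGTG was found in 2 of the 7 called clock genes (Ciart and Tef) and in 3 of 10 clock genes in the table that were not called, against 8.09% of all 27025 genes. The D-box TTATGTAA, bound by Dbp and Tef, was found in 0 of the 7 and in 1 of the 10, Per3, against 1.11% of all genes.

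**Figure D3:**
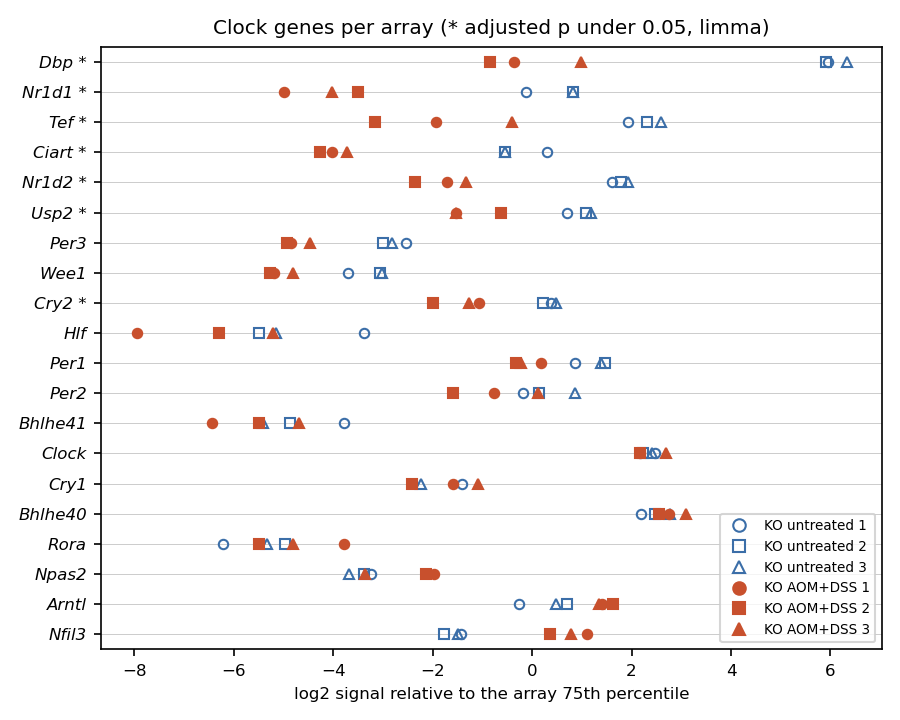
Scaled log2 signal, with the 75th percentile of the array at 0 (horizontal axis), of 20 of the 21 measured clock genes in untreated (open) and AOM+DSS treated (filled) mice with KO marrow, ordered by change. The 7 genes with an asterisk passed the limma threshold, from Dbp at -6.14 to Cry2 at -1.80, and the activators near the bottom did not.

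Beyond the clock, the large falls included transporters and enzymes of the epithelium. Slc30a10, a manganese exporter, was at 0.14, -0.40 and -1.23 in untreated mice and at -6.26, -8.11 and -4.27 in treated mice, where 1 of 3 arrays was well above background. It fell by 5.72 on the log2 scale (SE 0.98, limma adjusted p = 0.00654), with no overlap, but was not called on slide 2 alone (-3.45). Slc2a5, the fructose transporter, was at 1.69, 1.35 and 1.74 against -2.34, -2.96 and -1.63, and fell by 3.90 on the log2 scale (SE 0.41, limma adjusted p = 0.000432). Both groups of Slc2a5 values were narrow and far apart.

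Higd1c, Ces1b (a carboxylesterase), Fut9 (a fucosyltransferase) and Cd207 (langerin, a lectin of some dendritic cells) were not well above background on any treated array. They fell at least 17.1-fold, 11.7-fold, 8.72-fold and 7.42-fold, with limma adjusted p-values of 0.00251, 0.00477, 0.00491 and 0.00941. After normexp correction their changes were -0.64, -0.51, -0.23 and -0.03 and none was called. Nat8f5 and Tmem35a showed -5.22 and -3.62, or -0.91 and -1.67 after that correction, again without a call, and Nat8f5 was well above background on 1 of 3 treated arrays. Tns4 and Cttnbp2, among the largest falls with slide as a block, fell by 2.69 and 2.96 on the log2 scale, and the second probe of Cttnbp2 showed -0.85.

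Among the 12 largest rises, Aldh1a3, which makes retinoic acid, stood out as neither an immune nor a matrix gene. It was at -2.15, -3.73 and -3.25 in untreated and at 5.04, 3.71 and 4.40 in treated mice. All treated mice were above all untreated mice, and the change of 7.43 ± 0.84 was 172-fold (limma adjusted p = 0.00071). All 12 largest rises were called with slide as a block, on slide 2 alone, after normexp correction and in all 12 fits without 1 array. However, S100a8, Spp1, Mmp3, Il1b, Ccl3, Ccl4 and Cxcl3 had no probe well above background on all 6 KO arrays. Normexp correction gave Mmp3, Ccl3 and Cxcl3 changes of 3.33, 2.95 and 2.49, against 7.38, 7.26 and 6.53 without it.

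**Figure D4:**
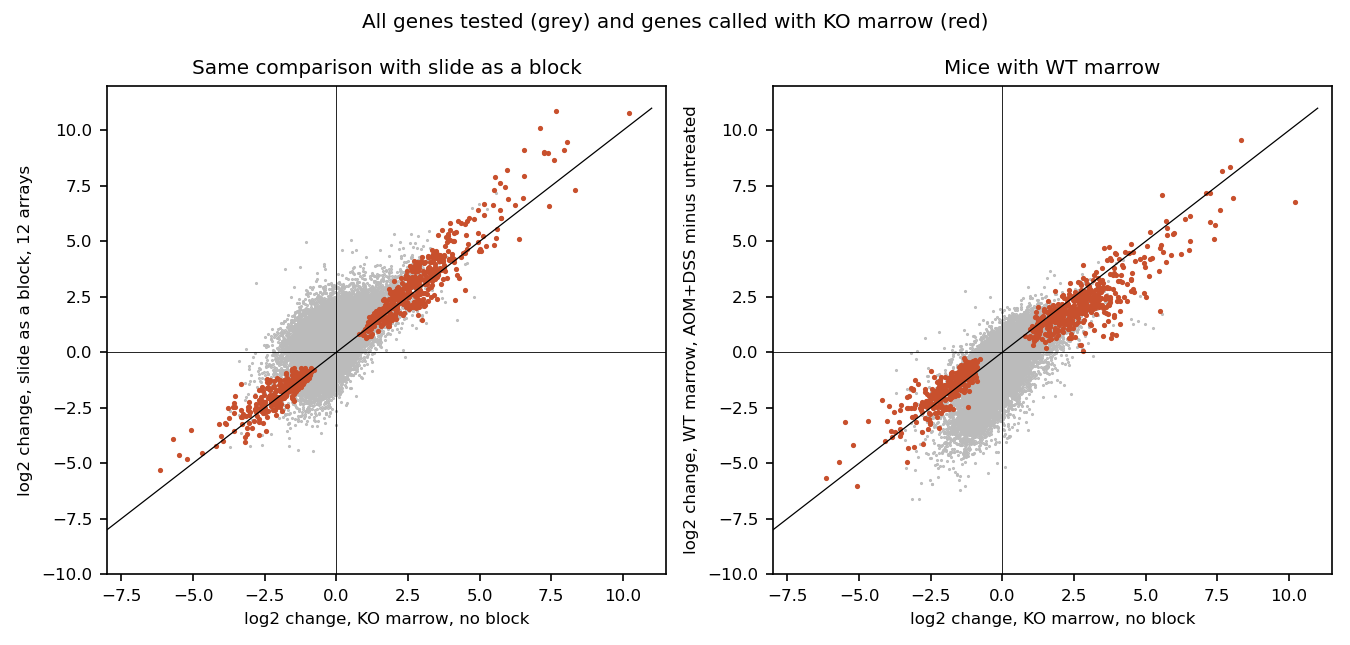
Log2 change with KO marrow (horizontal axes) against the same change with slide as a block (left) and against the change with WT marrow (right), for all genes tested (grey) and the 749 genes called with KO marrow (red), with the line of equality. Red points lie at the upper right and lower left of both panels, and the grey cloud is shifted upward on the left, where the median of all genes is 0.44.

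The response was compared with that of the mice with WT marrow, a comparison that shares no array with this one but shares slides. With WT marrow the untreated mice all lay on slide 1 and the treated mice on slides 3, 3 and 2. No slide held both WT groups, so treatment and slide cannot be told apart within the WT mice. All 749 genes called with KO marrow had a change of the same sign with WT marrow, as did 77.7% of all genes tested. With WT marrow 3279 genes were called (13.8%), and 562 genes were called with both marrows. The 439 rises had a median change of 2.01 with WT marrow, and the 310 falls one of -1.56. The genes were selected on their change with KO marrow, so their smaller median with WT marrow cannot show a difference between marrows. For the interaction, which tests whether marrow alters the change, limma called 0 of 23747 genes (0%), with 829 at an unadjusted p under 0.05, or 3.49%. Among the 749 genes 37 had such a p. A threshold missed by all genes with 3 mice a group does not show that the marrows gave equal responses.

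The highest interaction statistics, none past the threshold (limma adjusted p = 0.897), were those of Fam110a, Olfr805, Adora3, Olfr218 and Fstl4. These genes showed -1.32, -0.49, -1.33, 1.03 and -0.64 with KO marrow and -4.22, -5.43, -4.70, -2.80 and -3.22 with WT marrow. Among untreated KO mice each of them was highest in mouse 1, the only KO mouse on slide 1, where all untreated WT mice lay. The lowest were those of Chordc1, Hsph1, Vps26c, Prdx1 and Rpf2, with -0.50, 0.45, -0.48, -0.46 and 0.24 against 0.93, 1.89, 0.86, 0.61 and 1.58. Chordc1 encodes a partner of heat shock proteins and Hsph1 a heat shock protein. Their differences between the marrows were -1.43 ± 0.29 and -1.44 ± 0.32, and that of Prdx1, a peroxidase, was -1.07 ± 0.30. No slide held all 4 groups, so no value within 1 slide exists for these differences.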

How the data were processed

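Per the labels' protocols, mucosa was scraped from each colon, and its RNA was purified (RNeasy) and Cy3-labelled. The deposited scanner files hold spot intensities on a linear scale, background-corrected by Feature Extraction 10.7.3.1 and not scaled between arrays, per the file headers. The authors also deposited averages per group for 2506 probes, as log2 values. For all 2504 probes that matched, the KO difference had the same sign there as here (median gap 0.0119). The sources used here do not give the rule that selected them.

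In R 4.3.3, log2 processed signals had the 75th percentile of each array's 43379 gene spots subtracted; control spots were left out and spots with outlier flags set to missing. Spots were averaged to 41174 probes, and a probe was kept if every array of 1 or more groups had it well above background, which left 30219. A probe dim in untreated mice could thus be kept through a treated group alone, and for such a probe a fall could hardly be seen. Of all probes, 24375 were named through RefSeq accessions (GRCm38.p6) and 16799 kept the file's name. The brightest kept probe stood for each of 23747 genes, of which 14663 had a symbol. A genes-by-group model of all 12 arrays was fitted with limma 3.58.1 (with data.table, version 1.17.8; trended eBayes, 8 residual degrees of freedom), tested on simulated data. P-values rest on the spread between the 3 mice of a group, pooled over all 4 groups. Those of the KO comparison therefore also carry the spread of the WT mice.

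Normexp correction (offset 50) used median signals. Named were the 12 largest rises and falls, the 10 largest with slide as a block, up to 5 called genes of each of 36 lists, members needed to say what was not called, Muc1, all clock genes and the extreme interaction statistics. The members and lists were chosen with earlier results of these data known. Some members of the lists are counted but not reported here by name.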

Additional observations from a re-analysis of the deposited data

How the results depend on the processing

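Against 749 called genes, slide as a block gave 1725, and leaving out 1 array gave 251 to 1268. Quantile normalization gave 857, scaling on probes well above background everywhere 782, slide as a random block 916, the 6 KO arrays alone 982, normexp 566, no trend 568, averaged probes 710, no probe filter 657 and probes above background on all 6 KO arrays 615 of 18069. Same-numbered mice did not deviate together (correlations of -0.312, 0.209 and -0.127), so their numbers do not pair them, and a replicate block gave 714. The interaction stayed at 0 calls in each fit that tested it; it was not fitted on the 6 KO arrays alone or on slide 2 alone; the first lacks the WT groups and the second holds no untreated WT mouse. Of the 36 list medians, 17 moved beyond the spread between mice with slide as a block, 19 on slide 2 and 13 with normexp. Of 103 named called genes, none changed sign; 95 were called with slide as a block, 77 on slide 2 alone, 69 with normexp and 65 in all 12 fits without 1 array. Normexp adds an offset, which by construction draws dim signals together. Only 65 of the 103 had a probe well above background on all 6 KO arrays. Clock genes that were not called changed sign: Clock to 0.066 with detected-probe scaling, 0.29 with slide as a block, 0.15 with the random block, 0.37 on slide 2 and -0.20 to 0.061 without 1 array; Cry1 to -0.29 to 0.54 without 1 array; Rora to -0.078 with the block; Hlf to 0.31 with normexp, 0.12 with the block and 0.12 on slide 2; and Bhlhe41 to 0.45, 1.21, 0.29 (random block) and 0.44 in the same order. The cause was not tested. On slide 2 the single treated array is taken to vary as the other arrays do. The number of arrays and dim signals limit precision.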

Other observations

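Several called genes lay outside the lists and the naming rule, and were picked here after their values were seen. Tgm2, a transglutaminase that cross-links proteins, was at 0.97, 0.98 and 0.67 in untreated and at 5.03, 5.97 and 5.29 in treated mice with KO marrow, a change of 4.56 ± 0.29 with both groups narrow. Lrg1, a glycoprotein of the acute phase, went from -1.33, -2.15 and -2.49 to 3.75, 6.32 and 3.11, a change of 6.38 ± 0.87. Osmr, the receptor subunit for oncostatin M, changed by 5.60 ± 0.66, while Osm itself was not called (1.61). Inhba, the subunit of activin A, Igfbp5, which binds insulin-like growth factors, and F13a1, a coagulation factor also made by macrophages, changed by 5.88, 5.69 and 4.54. Of the 3 untreated arrays 1 was well above background for Inhba. Csf2rb2, a receptor subunit of myeloid growth factors, and Pirb, an inhibitory myeloid receptor, changed by 4.48 and 4.18.

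Lower were further enzymes of detoxification and lipid handling. Over all genes tested, 1.31% were called lower, or 2.6% with slide as a block. Of 9 measured Cyp2c cytochromes, 4 were called lower, among them Cyp2c40 from 6.19, 6.00 and 5.87 to 3.07, 3.00 and 3.46, and of 6 Ces1 carboxylesterases 4 were. Of 6 Ces2 carboxylesterases 2 were called lower, and of 12 Ugt genes 2, or 1 with slide as a block. The median change of the Ugt genes was -1.23, or -0.23 with the block. Ugt2b35, a glucuronidating enzyme, changed by -2.50 ± 0.31 and Hpgd, which degrades prostaglandins, by -2.27 ± 0.29. Selenbp1, a selenium-binding protein of mature colon epithelium, went from 8.92, 8.42 and 8.62 to 6.64, 6.19 and 6.60. Cipc, an inhibitor of CLOCK that the clock list did not hold, changed by -2.08 ± 0.30 and kept its call with slide as a block (-2.30). Of 88 measured genes of cytosolic ribosomal proteins, 5 were called lower, at about -1 each (Rpl10a -1.17, Rps15a -0.96), with a median over all of them of -0.48, or -0.14 with slide as a block, where the median of all genes was itself higher.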
